A study of Homo sapiens with 9 samples.

Results

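Cancer-testis genes are active in germ cells of the testis, silent in most other adult tissues, and active again in some tumours. The genes described here are 4 of the SPANX family (SPANXA1, SPANXB1, SPANXC and SPANXD) and 2 of the MAGEA family (MAGEA12 and MAGEA2B), all on the X chromosome. They were found by matching the numeric gene identifiers of the deposited table to RefSeq symbols, and all 6 were among its 18064 rows. SPANX genes encode small proteins of the sperm nucleus that are normally made in spermatids. MAGEA genes encode proteins that bind RING-type ubiquitin ligases and are known as tumour antigens seen by T cells. In somatic cells both families are known to be held silent largely by DNA methylation of their promoters.

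RNA sequencing was available for 9 libraries in 3 groups of 3. The titles give the cells as MDA-MB-231/PTX and do not explain PTX. The cells are read here as a line made resistant to paclitaxel from MDA-MB-231 cells of triple-negative breast cancer. They received a control siRNA (si-NC) or either of a pair of siRNAs against BCLIN25, named si1-BCLIN25 and si2-BCLIN25, and all were grown in medium with serum. The source and treatment fields instead name gefitinib-resistant PC9/GR lung adenocarcinoma cells and shRNAs against HUMT, so both the cells and the targeted RNA are uncertain. BCLIN25 and HUMT were not analysed here. Separate cultures are not stated for the replicates, and p-values therefore measure the spread between libraries, which may be technical. The column names of the controls begin differently from those of the siRNA libraries, and a batch that this may mark cannot be told apart from the groups.

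Levels are in FPKM, a measure of fragments that divides by the length of the transcript and by the mapped total of the library, so those of different genes can be compared per length. The total over all rows ranged from 394081 to 419025 FPKM, and the depth in reads is unknown. Of 8 genes listed as high in MDA-MB-231, 6 were expressed in every library: in the controls CAV1 averaged 282 FPKM, CD44 208, FOSL1 186, AXL 97.0, VIM 80.9 and MSN 72.9 FPKM. The epithelial repressor ZEB1 and the matrix protein SPARC stayed at or below 0.14 and 0.06 FPKM. The epithelial genes EPCAM, ESRP1, CLDN4 and CDH1 averaged 139, 53.4, 45.9 and 31.7 FPKM in the controls. NKX2-1 and NAPSA, which mark lung epithelium, had highest values of 0.78 and 0.34 FPKM. SFTPB, another lung gene of that list, did pass the filter on low values described below, so not every lung marker was near 0. Of 11 germ cell and sperm markers in the table, 10 were under the filter on low values described below, with a highest value of 0.42 FPKM. The exception was SYCP2, a part of the meiotic chromosome axis, at 3.35 to 6.59 FPKM. The summed germ cell list was at 6.23 to 7.12 FPKM in si-NC, 3.52 to 4.51 FPKM with si1-BCLIN25 and 4.38 to 4.96 FPKM with si2-BCLIN25. Of the defining germ cell markers, DDX4 stayed at or below 0.02 FPKM and DAZL at or below 0.06 FPKM. Among 7 stromal and blood markers, the leukocyte gene PTPRC was the highest, at 0.85 to 1.61 FPKM. Summed over their lists, the MDA-MB-231 genes lay at 922 to 928 FPKM in si-NC, 518 to 534 FPKM with si1-BCLIN25 and 560.3 to 574.8 FPKM with si2-BCLIN25, with 5 of the 6 tested called lower and CAV1 called higher in each siRNA group. The 8 lung and epithelial markers summed to 267 to 275, 233 to 240.4 and 250.3 to 255 FPKM. Of the 5 of these tested, EPCAM and CLDN4 were called lower and CDH1, ESRP1 and SFTPB higher in each siRNA group, with median log2 differences of 0.39 and 0.28, so the sum and the median differ in sign. The part that these shifts have in the values of the SPANX and MAGEA genes was not tested.

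The stretches just before the annotated starts are shown first, because they show how closely the copies of each family resemble each other. Each is the 250 bases before a RefSeq start on GRCh38.p14, read 5′ to 3′ on the gene's strand, with each CG dinucleotide, the site of DNA methylation, in capitals. The SPANX windows lie at chrX:141584739-141584988, minus strand (SPANXA1), chrX:141242518-141242767, minus strand (SPANXC) and chrX:141002344-141002593, plus strand (SPANXB1).
SPANXA1: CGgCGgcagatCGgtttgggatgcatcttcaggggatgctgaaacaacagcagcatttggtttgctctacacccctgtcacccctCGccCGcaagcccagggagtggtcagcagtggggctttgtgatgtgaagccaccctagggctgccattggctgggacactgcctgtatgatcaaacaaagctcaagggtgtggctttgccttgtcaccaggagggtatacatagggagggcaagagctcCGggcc
SPANXC: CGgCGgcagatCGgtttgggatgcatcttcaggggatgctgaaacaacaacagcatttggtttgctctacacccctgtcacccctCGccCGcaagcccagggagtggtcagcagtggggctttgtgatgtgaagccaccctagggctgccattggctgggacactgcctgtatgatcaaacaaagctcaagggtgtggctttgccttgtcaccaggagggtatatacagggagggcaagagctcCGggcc
SPANXB1: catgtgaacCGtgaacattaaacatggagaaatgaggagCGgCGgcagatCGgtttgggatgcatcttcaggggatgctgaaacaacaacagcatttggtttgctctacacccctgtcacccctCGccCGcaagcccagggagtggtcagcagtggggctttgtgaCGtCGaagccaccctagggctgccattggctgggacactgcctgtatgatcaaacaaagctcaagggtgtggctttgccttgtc

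The windows of SPANXA1 and SPANXC were identical at 247 of 250 bases, and that of SPANXB1 matched SPANXC at 209 of the 210 bases that aligned. The window before the annotated start of SPANXD aligned with that of SPANXA1 at 57.6% identity and is not shown. It ends with the bases that open the SPANXB1 window, so it lies further upstream and is not the matching stretch. The transcripts of SPANXA1 and SPANXD in GENCODE 29 were identical at 98.2% of 681 aligned bases. The windows of SPANXA1, SPANXC and SPANXB1 held 6, 6 and 8 CG dinucleotides. Starts depend on the annotation, and GENCODE 29 places that of SPANXA1 273 bases further upstream and that of SPANXD where RefSeq does.

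For the MAGEA family, the windows of the members are shown with that of MAGEA3, the most abundant other MAGEA row, at chrX:152733507-152733756, plus strand (MAGEA12, the first of its annotated starts), chrX:152714378-152714627, plus strand (MAGEA2B) and chrX:152698544-152698793, plus strand (MAGEA3).
MAGEA12: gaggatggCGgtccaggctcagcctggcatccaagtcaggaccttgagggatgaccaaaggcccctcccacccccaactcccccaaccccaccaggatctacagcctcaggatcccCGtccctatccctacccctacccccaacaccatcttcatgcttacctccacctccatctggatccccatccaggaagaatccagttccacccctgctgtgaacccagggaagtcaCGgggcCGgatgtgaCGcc
MAGEA2B: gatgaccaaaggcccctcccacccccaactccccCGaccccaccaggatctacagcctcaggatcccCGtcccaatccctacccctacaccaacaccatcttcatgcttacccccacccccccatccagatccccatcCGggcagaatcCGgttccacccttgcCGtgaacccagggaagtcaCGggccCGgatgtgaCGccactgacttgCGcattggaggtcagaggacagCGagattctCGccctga
MAGEA3: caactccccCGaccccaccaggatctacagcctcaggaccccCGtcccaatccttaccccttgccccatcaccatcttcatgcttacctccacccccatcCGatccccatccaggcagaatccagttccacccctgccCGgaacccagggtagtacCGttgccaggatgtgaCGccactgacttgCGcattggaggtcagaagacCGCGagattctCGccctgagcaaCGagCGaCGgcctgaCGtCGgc

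MAGEA12 and MAGEA2B aligned at 93.5% identity, MAGEA12 and MAGEA3 at 89.7%, and MAGEA2B and MAGEA3 at 91.9%. Their windows held 5, 11 and 15 CG dinucleotides in that order, against a median of 11 and quartiles of 3 and 23 over 27303 RefSeq promoter windows of 250 bases. The window before the other annotated start of MAGEA12 held 13 CG dinucleotides and 3 copies of GGAAG, the first motif named next. Motifs were searched on both strands. GGAAG, a form of the ETS site, occurred 2 times before MAGEA12 and 1 time before MAGEA2B. It occurred in none of the other windows printed, while 65.1% of all windows hold it. Other forms of the ETS core were not counted, so windows without GGAAG may still hold one. CGGAAG, which contains GGAAG, the AP-1 motif TGANTCA and the E-box CACGTG occurred in none of the 6 windows printed, against 16.8%, 6.60% and 6.49% of all windows. The SPANXD window, which does not cover the stretch of the other SPANX windows, held GGAAG 3 times and TGANTCA 1 time.

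SPANXA1 (gene 30014) had the highest level of the members in the siRNA libraries. Its level was 9.51, 7.27 and 6.58 FPKM in si-NC replicates 1 to 3, 151, 176 and 162 FPKM in si1-BCLIN25, and 165, 153 and 159 FPKM in si2-BCLIN25. Every siRNA library was therefore above 150 FPKM and every control below 10 FPKM, with no overlap. The group means were 7.79 ± 1.53, 163 ± 12.2 and 159 ± 6.17 FPKM (SD, n = 3 each), which is 20.9-fold and 20.4-fold above si-NC. In bulk RNA, more cells with the transcript and more transcript per cell cannot be told apart.

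SPANXC (gene 64663) went from the lowest level of the 6 to the next highest after SPANXA1. It lay at 2.31, 1.15 and 0.86 FPKM in si-NC, at 42.6, 59.4 and 57.7 FPKM in si1-BCLIN25, and at 50.4, 38.3 and 50.9 FPKM in si2-BCLIN25. Control replicate 1 was the highest of its group, and the controls stayed far below every siRNA library. Mean levels were 1.44 ± 0.767, 53.3 ± 9.23 and 46.5 ± 7.11 FPKM, 37.0-fold and 32.3-fold above si-NC. On the log2(FPKM + 1) scale, which understates differences of low genes, the differences were 4.50 and 4.32, and with a pseudocount of 0.1 they were 5.21 and 5.02.

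SPANXB1 (gene 728695) was at 7.38, 3.63 and 6.04 FPKM in si-NC. It was at 38.2, 38.9 and 45.2 FPKM in si1-BCLIN25 and at 35.4, 34.9 and 37.2 FPKM in si2-BCLIN25. Replicate 2 was the lowest control, and the highest control stayed below the lowest siRNA library. SPANXB1 was 7.18-fold and 6.30-fold above si-NC.

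SPANXD (gene 64648) had the lowest level of the SPANX members in the siRNA groups. Its values were 2.66, 2.18 and 1.98 FPKM in si-NC, 17.1, 16.5 and 15.8 FPKM in si1-BCLIN25, and 14.43, 15.79 and 14.98 FPKM in si2-BCLIN25. Here too no control reached a siRNA library, and the ratios of the means were 7.24 and 6.63.

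MAGEA12 (gene 4111) differed less and varied least between replicates. It lay at 8.47, 8.23 and 8.42 FPKM in si-NC, at 20.4, 19.8 and 21.1 FPKM in si1-BCLIN25, and at 19.9, 20.9 and 20.1 FPKM in si2-BCLIN25. Among the controls it was the most abundant of the 6, at 8.37 ± 0.127 FPKM, though SPANXA1 at 7.79 ± 1.53 FPKM was within its own spread of that level. The means were 2.44-fold and 2.42-fold above si-NC.

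MAGEA2B (gene 266740) was the least regular. It was at 2.77, 1.57 and 2.55 FPKM in si-NC, at 6.89, 5.88 and 8.13 FPKM in si1-BCLIN25, and at 8.19, 3.39 and 6.68 FPKM in si2-BCLIN25. Replicate 2 of si2-BCLIN25 stood well below its group and still above the highest control. The ratios of the means were 3.03 and 2.65.

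**Figure D1:**
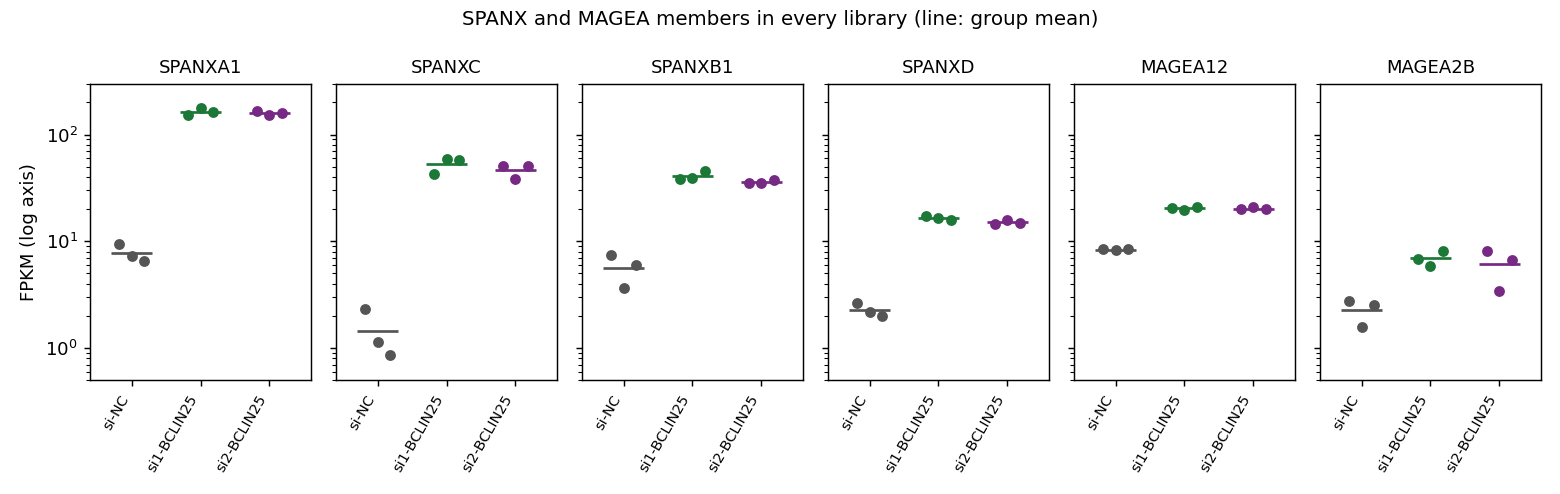
FPKM of the 6 members on a shared log axis, with a point for each library and a line at each group mean (n = 3 per group). The controls lie below every siRNA library for all 6 genes, with the widest separation for SPANXC (1.44 against 53.3 and 46.5 FPKM) and the narrowest for MAGEA2B, whose highest control was at 2.77 FPKM and lowest siRNA library at 3.39 FPKM.

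In order of mean level, the siRNA groups had SPANXA1 highest, followed by SPANXC, SPANXB1, MAGEA12, SPANXD and MAGEA2B. SPANXC and SPANXB1 overlapped in si1-BCLIN25, where the lowest SPANXC library was at 42.6 FPKM and the highest SPANXB1 library at 45.2 FPKM, and did not overlap in si2-BCLIN25. No other neighbours in that order overlapped in si1-BCLIN25 or si2-BCLIN25. In si-NC the order was MAGEA12, SPANXA1, SPANXB1, MAGEA2B, SPANXD and SPANXC, and the neighbours overlapped except SPANXB1 and MAGEA2B. Among the 12317 genes tested, SPANXA1 moved from the 39.0th percentile of level in si-NC to the 97.0th in si1-BCLIN25 and the 96.9th in si2-BCLIN25. SPANXC moved from the 7.97th percentile to the 88.5th and 86.4th.

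The members were chosen by their FPKM, as genes known to be higher in both siRNA groups than in si-NC, so the differences from si-NC are a description and were given no test. All 6 passed the filter of at least 1 FPKM in at least 3 libraries, and for SPANXC 2 of 3 controls reached 1 FPKM. All 6 had no overlap with si-NC in either siRNA group, where 64.7% of the genes tested did not overlap in si1-BCLIN25 and 67.1% in si2-BCLIN25 in either direction (39.0% and 40.5% higher, 25.7% and 26.6% lower). By rank of the log2 difference among the 12317 genes tested, SPANXC and SPANXA1 were at 2 and 3 in si1-BCLIN25 and at 1 and 2 in si2-BCLIN25. SPANXB1 and SPANXD were at 24 and 32, then at 25 and 30. MAGEA2B and MAGEA12 were at 192 and 227, then at 295 and 217. The siRNA groups share the same 3 controls, so their differences are not independent of each other.

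The difference in means between the siRNA groups does not use the controls. Its filter, p-values and intervals do, since the model estimates the spread over all 9 libraries. In limma, a linear model on log2(FPKM + 1) over all 9 libraries with p-values adjusted over all 12317 genes, 0 of the 6 members passed the threshold of 0.05, and 0 had an unadjusted p under 0.05, which 17.8% of all genes tested had. All 6 means were lower in si2-BCLIN25. The smallest unadjusted p was that of SPANXD, 0.116, with a difference of -0.12 (95% interval -0.27 to 0.03, adjusted p = 0.401). For SPANXA1 the difference was -0.03 (interval -0.24 to 0.17, adjusted p = 0.887), for SPANXC -0.19 (-0.60 to 0.22, adjusted p = 0.635) and for SPANXB1 -0.18 (-0.52 to 0.16, adjusted p = 0.584). For MAGEA12 the interval was the tightest, from -0.10 to 0.08 around -0.01 (adjusted p = 0.925), and for MAGEA2B the widest, from -0.72 to 0.27 around -0.23 (adjusted p = 0.635). These intervals do not show that the siRNAs act alike on the members. Of all genes tested, 0.585% (72 of 12317) were called between the siRNA groups, 0.276% higher and 0.309% lower in si2-BCLIN25. That count depended on single libraries. It was 132, 111 and 90 without si-NC replicates 1, 2 and 3, and 67, 5 and 5 without si1-BCLIN25 replicates 1, 2 and 3. Without si2-BCLIN25 replicates 1, 2 and 3 it was 3, 8 and 2.

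Reads that fit several copies limit what single rows show. In GENCODE 29 transcripts, 100% of the distinct 50-base windows of SPANXA1 also occur in SPANXA2, a copy for which no row was analysed here, so the SPANXA1 row cannot be assigned to either gene. For SPANXC 84.9% of windows occur in another SPANX transcript, and for SPANXD 71.6%. Of the SPANXC windows, 65.7% occur in SPANXD and 46.75% in SPANXA1, some of them in both. SPANXB1 is the most distinct SPANX member, with 21.7% of windows shared. MAGEA12 shares 13.3% of its windows with other MAGEA transcripts, and MAGEA2B shares 96.2% with MAGEA2.

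No member row held the same 9 values as another row, and none lay within 5% of another row in every library. The nearest family row to SPANXC was SPANXD, and it differed by up to 72.6%. Summed over the 6 SPANX rows of the table, which include SPANXN3 and SPANXN4 at no more than 0.35 FPKM, the level was 21.9, 14.5 and 15.5 FPKM in si-NC, 250, 290 and 281 FPKM in si1-BCLIN25, and 266, 242 and 262 FPKM in si2-BCLIN25. The means were 17.3 ± 4.04, 274 ± 21.5 and 257 ± 12.5 FPKM, 15.8-fold and 14.8-fold above si-NC. The make-up of the sum also differed. SPANXA1 held 42.3% to 50.2% of it in the controls and 57.7% to 63.1% in the siRNA libraries, and SPANXC 5.53% to 10.5% and then 15.8% to 20.5%. SPANXB1 went the other way, from between 25.1% and 38.9% to between 13.3% and 16.1%.

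MAGEA2B and its near-copy MAGEA2 traded values between libraries. MAGEA2 (gene 4101) was at 0.05, 0.82 and 0.47 FPKM in si-NC, at 1.17, 1.37 and 0 FPKM in si1-BCLIN25, and at 0, 3.97 and 1.19 FPKM in si2-BCLIN25. Its highest value fell in the library where MAGEA2B was lowest of its group, and it was listed at 0 in the 2 libraries where MAGEA2B was highest. Added together, the rows gave 2.82, 2.39 and 3.02 FPKM in si-NC, 8.06, 7.25 and 8.13 FPKM in si1-BCLIN25, and 8.19, 7.36 and 7.87 FPKM in si2-BCLIN25. In si2-BCLIN25 the SD was 2.45 FPKM on a mean of 6.09 for MAGEA2B alone and 0.419 FPKM on a mean of 7.81 for the sum. Both siRNA groups had a mean sum of 7.81 FPKM, 2.85-fold above the 2.74 ± 0.322 FPKM of si-NC.

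**Figure D2:**
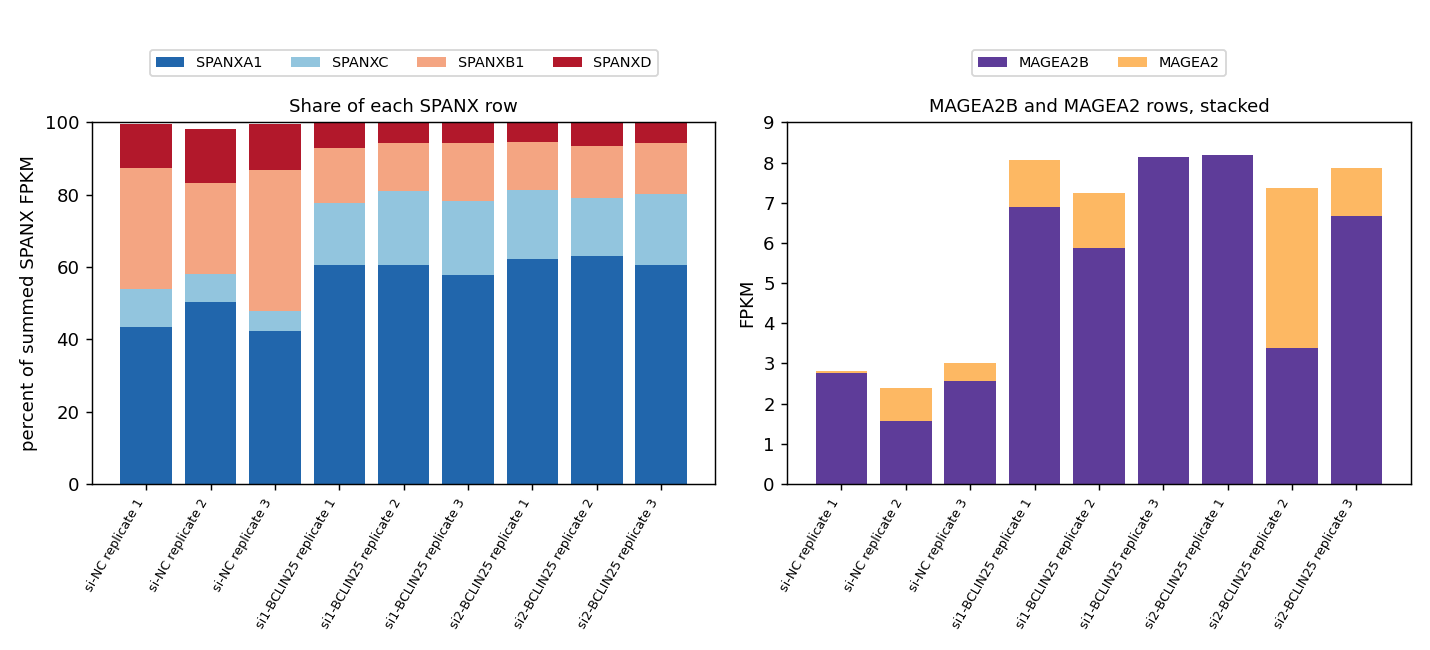
Left, the percent of the summed SPANX FPKM held by each SPANX member in each library. Right, the FPKM of the MAGEA2B and MAGEA2 rows stacked. SPANXB1 holds 13.3% to 16.1% of the SPANX sum in the siRNA libraries, and the MAGEA2B and MAGEA2 stack stays between 7.25 and 8.19 FPKM there although the parts change.

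Of 10 other MAGEA rows, 3 passed the filter, and 0 of these 3 were called higher in either siRNA group with all libraries, where 38.4% and 38.6% of all genes tested were. The 3 include MAGEA2, whose row cannot be read apart from that of MAGEA2B. MAGEA3 (gene 4102), the most abundant MAGEA row of the controls, fell from 15.7, 15.9 and 15.2 FPKM in si-NC to 11.2, 12.1 and 11.1 FPKM in si1-BCLIN25 and 9.89, 10.5 and 11.1 FPKM in si2-BCLIN25. Its log2 differences were -0.41 and -0.53 (SE 0.051, limma adjusted p = 1.75e-05 and 1.88e-06), and it fell under each scaling tried. MAGEA6 (gene 4105) was at 2.26, 2.04 and 2.19 FPKM on average (limma adjusted p = 0.274 and 0.756). Under quantile normalization it was called lower in both siRNA groups, by -0.29 and -0.24 (limma adjusted p = 0.00547 and 0.0179). MAGEA3 shares 54.9% of its windows with MAGEA6, and their rows summed to at least 17.72 FPKM in each control and to no more than 13.86 FPKM in each siRNA library. MAGEA2 was not called (adjusted p = 0.608 and 0.248), except at 1.23 in si2-BCLIN25 without its replicate 1 (adjusted p = 0.02). The other 7 MAGEA rows stayed at or below 0.60 FPKM. Summed over 12 MAGEA rows the level was 29.8 ± 0.378 FPKM over the controls, against 42.6 ± 0.878 FPKM with si1-BCLIN25 (1.43-fold) and 41.7 ± 0.825 FPKM with si2-BCLIN25. MAGEA12 held 28.1% of that sum in si-NC and 48.0% and 48.6% in the siRNA groups, and MAGEA3 52.4% and then 27.0% and 25.1%.

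CSAG1 and CSAG2, which start beside the MAGEA members, rose in both siRNA groups. CSAG1, a cancer-testis gene on the opposite strand, starts 44 bases from MAGEA12 in GENCODE 29, and CSAG2 starts 37 bases from MAGEA2B. The gene models do not overlap. CSAG1 was at 12.8, 9.91 and 10.9 FPKM in si-NC, at 22.9, 25.9 and 25.7 FPKM in si1-BCLIN25, and at 25.1, 24.8 and 26.9 FPKM in si2-BCLIN25. Its log2 differences were 1.09 and 1.13 (SE 0.076, limma adjusted p = 9.57e-08 and 7.17e-08), beside 1.19 and 1.18 for MAGEA12. CSAG2 rose from 0.953 to 2.68 and 3.30 FPKM, by 0.95 and 1.17 (limma adjusted p = 0.000586 and 0.000114). It needed the siRNA libraries to pass the filter. CSAG2 shares 94.2% of its windows with CSAG3, which starts 37 bases from MAGEA2 and was not called (adjusted p = 0.0989 and 0.957), so their rows are uncertain singly. Their sum was 3.82 ± 0.265 FPKM in si1-BCLIN25 and 3.77 ± 0.204 FPKM in si2-BCLIN25, against 1.497 ± 0.225 FPKM in the controls.

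Other cancer-testis genes were mostly near 0. Of 146 listed, 85 had a row and 13 passed the filter. In si1-BCLIN25 6 rose and 2 fell, 61.5% called against a background of 63.1% of all genes tested (38.4% higher, 24.6% lower). In si2-BCLIN25 6 rose and 1 fell, 53.8% called against 63.0% (38.6% higher, 24.4% lower). Those shares are near the background. A gene low in the siRNA groups needs all 3 controls at 1 FPKM to pass the filter, so the split favours genes that rose. CSAG2, called higher, passed only with the siRNA libraries, and IL13RA2, lower in its siRNA values, did not pass. The median log2 difference of the 13 was 0.29 and 0.36, against 0.06 over all genes tested in each siRNA group. Quantile normalization gave 5 higher and 4 lower, then 5 higher and 3 lower, and moved the split over all genes from 4731 higher and 3035 lower to 3797 and 3775 in si1-BCLIN25, and from 4756 and 3003 to 3814 and 3707 in si2-BCLIN25.

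Beyond the CSAG genes, MAGEC1 rose from 2.30 to 4.12 and 3.93 FPKM, by 0.63 and 0.58 (limma adjusted p = 6.91e-06 and 1.54e-05). MAGEC2, which neighbours it, was at 2.86, 2.81 and 3.29 FPKM and was not called (adjusted p = 0.849 and 0.0618), though without trend it was called higher in si2-BCLIN25 (adjusted p = 0.033), as it was without si-NC replicate 2 (0.0371) or si2-BCLIN25 replicate 3 (0.0383), and under quantile normalization it was called lower in si1-BCLIN25 (-0.20, adjusted p = 0.0134). The sperm fibrous sheath gene CABYR rose from 4.73 to 7.77 FPKM in si1-BCLIN25 (limma adjusted p = 6.84e-06) and to between 6.38 and 7.79 FPKM in si2-BCLIN25 (6.02e-05), and SPA17, a sperm surface protein, from 1.89 to 3.59 and 3.43 FPKM. TEX15, a germ cell gene, rose from 2.06 to 2.73 and 2.92 FPKM, a call lost under quantile normalization (limma adjusted p = 0.344 and 0.126). ZNF165, a zinc finger gene, fell from 10.8 to 9.27 FPKM in si1-BCLIN25 (limma adjusted p = 0.0314). That call was lost with no filter (0.0635) and without replicate 3 of si-NC (0.141), or replicate 2 or 3 of si1-BCLIN25 (0.0889 and 0.0804). In si2-BCLIN25 ZNF165 was at 9.58 FPKM (adjusted p = 0.0816), with a call of lower under quantile normalization (0.0129), median centring (0.0235) and without si-NC replicate 2 (0.0177). The scaffold gene SPAG9 was at 36.5, 34.1 and 35.5 FPKM and was not called (adjusted p = 0.0519 and 0.394), except lower in si1-BCLIN25 under median centring (0.00613) and without si-NC replicate 2 (0.0367) or si1-BCLIN25 replicate 1 (0.0291). Of 39 other X-linked cancer-testis rows, 36 were under the filter, the highest at 1.32 FPKM. CTCFL, a testis paralogue of CTCF, was at 0.36, 0.46 and 0.307 FPKM.

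**Figure D3:**
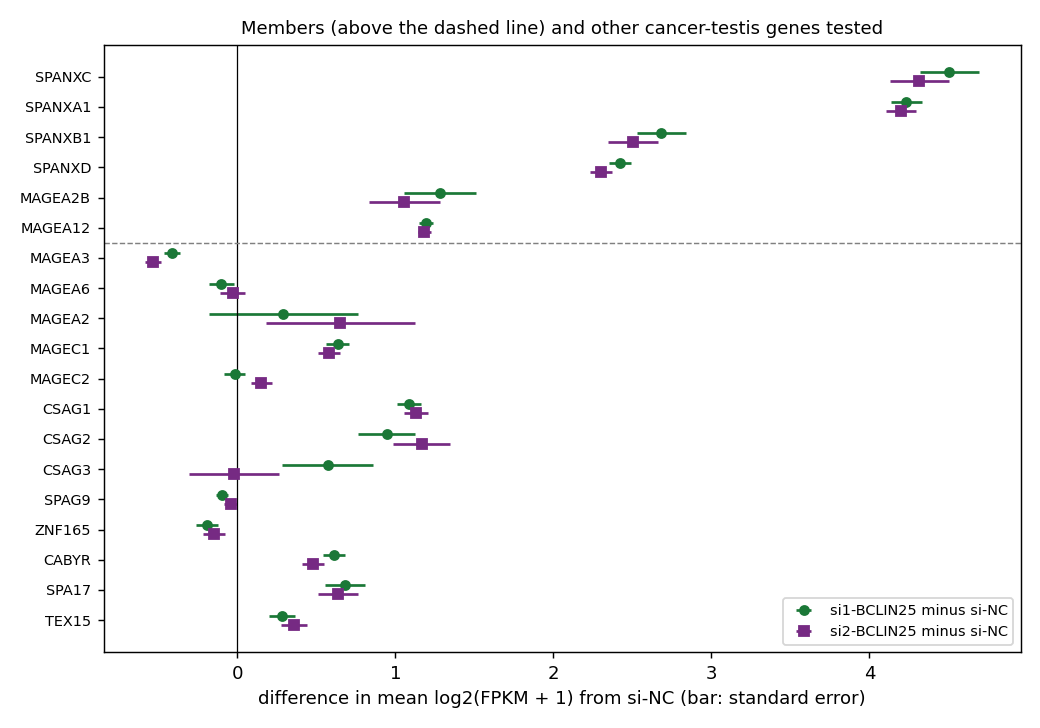
Difference in mean log2(FPKM + 1) from si-NC for the 6 members, above the dashed line, and the 13 other cancer-testis genes tested, with standard errors from the limma model over 9 libraries. CSAG1 and CSAG2 lie near MAGEA12 at about 1, whereas MAGEA3 lies below 0 (-0.41 and -0.53).

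Factors of DNA methylation and gene silencing were looked at, since such machinery is known to hold these genes silent. The list also holds the TET enzymes, which act against DNA methylation, so its counts mix opposed activities. In si-NC, si1-BCLIN25 and si2-BCLIN25, TET1 averaged 0.857, 1.26 and 1.27 FPKM and TET2 3.35, 4.07 and 4.23 FPKM. TET3 went the other way, at 11.1, 5.93 and 6.12 FPKM. TET1 passed the filter through the siRNA libraries alone. Of 37 listed, all were tested. In si1-BCLIN25 16 rose and 9 fell (67.6% called against 63.1%), and in si2-BCLIN25 17 rose and 5 fell (59.5% against 63.0%), with medians of 0.10 and 0.03. In si2-BCLIN25 quantile normalization gave 13 higher and 8 lower, and median centring 13 and 10. The maintenance methyltransferase DNMT1 fell from 58.0 ± 2.62 FPKM to 52.7 ± 1.54 and 49.7 ± 1.58, with log2 differences of -0.13 and -0.22 (limma adjusted p = 0.0151 and 0.000701). Without si-NC replicate 2 or si1-BCLIN25 replicate 3 the si1-BCLIN25 call was lost (adjusted p = 0.0604 and 0.0642). UHRF1, which brings DNMT1 to DNA, was at 45.5, 46.0 and 43.4 FPKM and was not called (adjusted p = 0.717 and 0.154), except lower in si2-BCLIN25 under median centring (0.0191).

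The de novo methyltransferase DNMT3B rose from 3.24 ± 0.266 FPKM to 6.73 ± 0.416 and 5.93 ± 0.169, by 0.87 and 0.71 (limma adjusted p = 1.33e-07 and 8.61e-07). DNMT3A rose from 9.22 to 11.2 and 10.3 FPKM, and in si2-BCLIN25 that call was lost under quantile normalization (0.270), median centring (0.136) and without si-NC replicate 1 (0.0696) or si2-BCLIN25 replicate 2 (0.124). The most abundant factors were the histone deacetylase HDAC2, which rose from 227 to 272 and 271 FPKM, and the demethylase KDM1A, from 173 to 272 and 264 FPKM. HDAC1 rose from 92.4 to 127 and 122 FPKM. TRIM28, a corepressor that some MAGE proteins are known to bind, fell from 136 ± 11.9 FPKM to 119 ± 3.97 and 117 ± 6.80, and in si1-BCLIN25 the call was lost without si-NC replicate 2 (adjusted p = 0.0654) or si1-BCLIN25 replicate 3 (0.0571). Whether any of these levels bears on the members was not tested.

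Along the X chromosome, more neighbours of the members were called higher than lower. In each siRNA group, 9 of 14 neighbours outside both families were called higher and 2 lower. Near the MAGEA members it was 5 higher and 0 lower of 7. Among those called higher, SLITRK4 and CSAG2 passed the filter only with the siRNA libraries, which favours a call of higher. CSAG1 and CSAG2 also start beside members that were chosen as higher. The counts are therefore a description and no separate support. Of 409 X-linked genes tested outside the SPANX and MAGEA families, 42.5% were called higher and 20.8% lower in si1-BCLIN25, and 39.6% and 18.6% in si2-BCLIN25. Over all genes tested the shares were 38.4% higher and 24.6% lower, then 38.6% and 24.4%. The largest positive difference among them was that of PIR, a nuclear iron-binding protein, at 1.84 and 1.89, below the 2.30 to 4.50 of the SPANX members. The largest negative one was that of MSN, which links membrane and actin, at -3.89 and -3.85. LDOC1, a leucine zipper protein encoded between SPANXB1 and SPANXC in RefSeq order, rose from 5.09 ± 0.348 FPKM to 13.8 ± 0.843 and 12.7 ± 1.19, by 1.28 and 1.17 (limma adjusted p = 8.51e-09 and 2.10e-08). Past the SPANX genes, SLITRK4, a neuronal membrane protein, was at 0.0133 FPKM in si-NC and at 1.90 and 2.07 FPKM in the siRNA groups, and passed the filter through the siRNA libraries alone. Before them, the Rac exchange factor ARHGEF6 rose from 1.41 to 4.07 and 4.27 FPKM, while the RNA-binding protein RBMX fell from 219 to 197 and 187 FPKM. Near the MAGEA members, the GABA receptor subunit GABRE rose from 5.97 to 13.8 and 12.1 FPKM. The centrin CETN2 and the cholesterol synthesis enzyme NSDHL, on the far side, rose by 0.33 and 0.32 in si1-BCLIN25 and by 0.23 and 0.21 in si2-BCLIN25. VMA21, an assembly factor of the proton pump, was not called (adjusted p = 0.414 and 0.0785), except higher in si2-BCLIN25 without si-NC replicate 3 (0.0176).

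**Figure D4:**
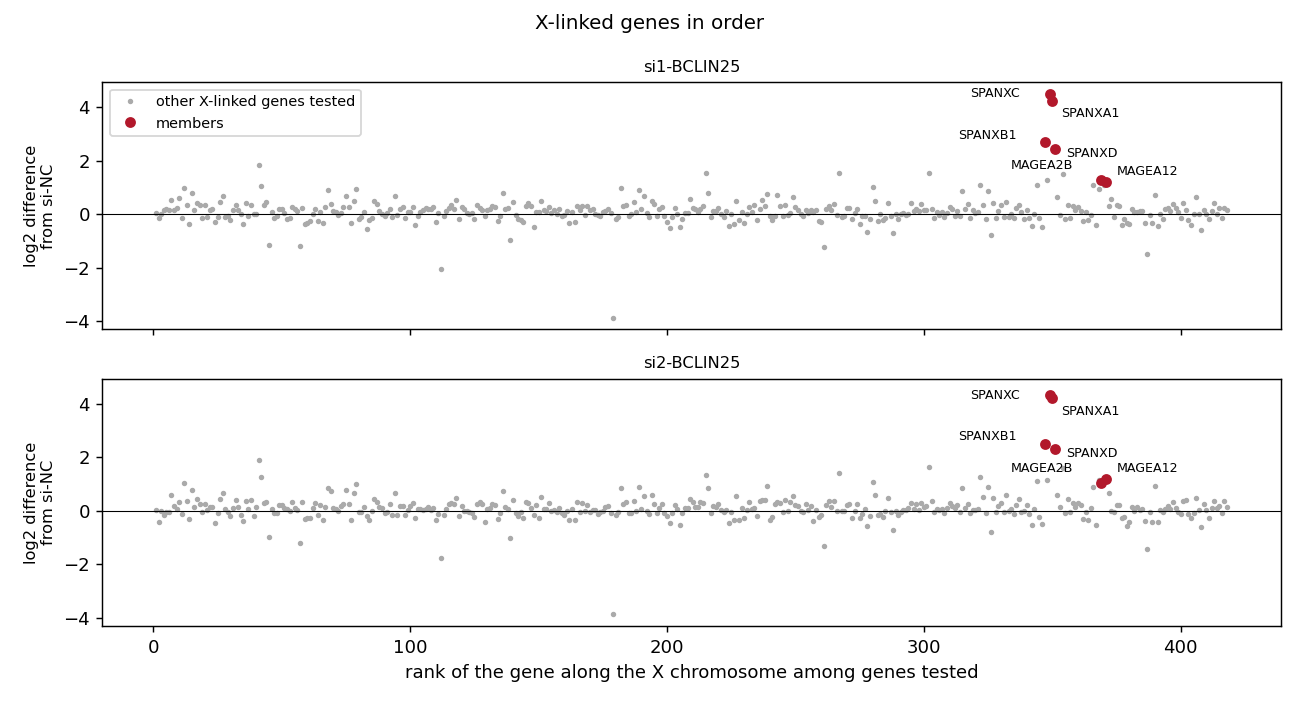
Difference from si-NC in mean log2(FPKM + 1) for the X-linked genes tested, by their rank in RefSeq order along the chromosome, for si1-BCLIN25 (top) and si2-BCLIN25 (bottom). The members (large points) lie in nearby clusters, the SPANX genes at 2.30 to 4.50 and the MAGEA genes at 1.06 to 1.28, above most of the other genes shown in grey.

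Across the 9 libraries, the genes outside both families whose centred log2 profile was nearest to the mean SPANX profile were the death ligand TNFSF10, SERPINB13, WNT10A, the receptor chain IL20RB and the calcium-binding protein S100A7, with root mean square differences of 0.098, 0.157, 0.172, 0.182 and 0.195 on the log2 scale. TNFSF10 was at 2.67, 43.0 and 37.0 FPKM and S100A7 at 0.413, 18.9 and 15.7 FPKM in si-NC, si1-BCLIN25 and si2-BCLIN25. SERPINB13 and WNT10A averaged 0.823 and 0.20 FPKM in si-NC. Like S100A7, they passed the filter through the siRNA libraries. The SPANX members themselves lay 0.39 to 0.50 from their mean, SPANXC and SPANXA1 above it and SPANXB1 and SPANXD below. Nearest to the mean MAGEA profile were the coagulation inhibitor TFPI, CNKSR3, the interferon-induced IFI6, the transporter SLC16A9 and SSBP2, at 0.134 to 0.140. SLC16A9 averaged 0.837 FPKM in si-NC, so it too needed the siRNA libraries to pass the filter. MAGEA12 and MAGEA2B each lay 0.165 from that mean. The measure follows mainly the size of each gene's difference from si-NC, since the libraries within a group varied less.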

How the data were processed

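The deposited values are FPKM, per the file headers, for 9 libraries; per the labels' protocols, Trizol extracts were sequenced on the BGI500 platform. The tools named in the submitters' processing notes, without their roles, are RSEM 1.2.12, HISAT2 2.0.4, DESeq2 1.4.5 and Bowtie2 2.2.5. Not given in the sources used here are the genome build, the annotation, the strand setting and the treatment of reads that fit several genes, which decides how near-identical genes divide their reads. Of 18064 rows, 17748 matched a RefSeq symbol (GRCh38.p14). Depth is unknown: of the values of 1401 low genes, 30.9% came out whole, within 0.1, when divided by the lowest value of that gene, and no reads could be recovered.

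Groups and replicate numbers came from the titles. Values were transformed to log2(FPKM + 1), and the 12317 genes that reached 1 FPKM in 3 or more of the libraries were fitted with limma 3.58.1 in R 4.3.3 (all 9 libraries, eBayes with trend), with Benjamini-Hochberg adjustment over all genes tested and a threshold of 0.05. A gene past it is described as called, risen or fallen, and every adjusted p is from this model unless an alternative is named. The model was checked on simulated data. Shared 50-base windows were counted in GENCODE 29 transcripts, and promoters aligned globally with free end gaps in Biopython 1.88. The members and lists were chosen with earlier results of these data known. The rule for named genes took the 4 members of each list highest in mean level (of the germ cell and stromal lists only the highest is named), with all tested cancer-testis genes, the DNA methyltransferases, UHRF1 and CTCFL, the nearest tested neighbours (3 on each side, 1 of which is not reported here) and the 5 nearest profiles per family. ZEB1, SPARC, VIM, MSN, NKX2-1, NAPSA, SFTPB, DDX4, DAZL, PIR, TET1, TET2 and TET3 were named outside it, after their values were seen. Alternatives were a pseudocount of 0.1, no filter, a minimum of 5 FPKM, quantile normalization, median centring, no trend, only the groups compared, a replicate block, each library left out, and family sums; the sum of MAGEA2 and MAGEA2B was added after seeing the data.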

Additional observations from a re-analysis of the deposited data

How the results depend on the processing

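The differences of the 6 members from si-NC stayed above 0 under every alternative run, from 0.47 to 5.21 on the log2 scale, the lowest for the sum of all MAGEA rows and the highest for SPANXC with a pseudocount of 0.1. Since the members were chosen as higher and did not overlap with si-NC, most of these alternatives could not have changed that sign. No member passed the threshold between the siRNA groups under any alternative. Counts of genes called between the siRNA groups, 72 as reported, were 3 with no filter, 110 at a minimum of 5 FPKM, 13 without trend, 230 with only the groups compared, 6 with the replicate block and 2 to 132 with each library left out, so that count is not settled. Other cancer-testis genes called, 8 and 7 as reported, were 18 and 17 of 85 with no filter and 4 and 3 of 5 at a minimum of 5 FPKM, where fewer were tested. The replicate numbers did not pair the libraries: same-numbered libraries correlated between -0.164 and 0.139 in their deviations from the group means. With the block, 7665 and 7626 genes were called against si-NC (7766 and 7759 without), and 8 and 7 of the other cancer-testis genes. The cause of these shifts was not tested. With read depth unknown, no counting error can be given for rows near 1 FPKM, and 3 libraries per group limit the intervals.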

Other observations

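Some cancer-testis genes under the filter, named by their level in the lists, differed between the groups in their values without a test. The mean of IL13RA2, a decoy receptor for interleukin 13, was 1.16 ± 0.229 FPKM over the controls, against 0.0867 ± 0.0451 with si1-BCLIN25 and 0.10 ± 0.052 with si2-BCLIN25. In the same order MAGEB6 had means of 0.807, 0.27 and 0.28 FPKM, and MAGEC3 of 0.0567, 0.36 and 0.69 FPKM.

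Of the widely expressed type II MAGE genes, 7 of 8 rows were tested. In si1-BCLIN25 2 rose and 2 fell (57.1% called, against 63.1% of all genes tested), and in si2-BCLIN25 1 rose and 0 fell (14.3% against 63.0%). MAGED1, an adaptor of the p75 neurotrophin receptor, rose from 38.4 ± 0.853 FPKM to 51.1 ± 2.35 and 47.0 ± 1.57, with log2 differences of 0.40 and 0.29 (limma adjusted p = 3.80e-06 and 8.00e-05). MAGED4B was called in si1-BCLIN25 alone, from 22.6 to 27.8 FPKM (limma adjusted p = 0.000551), with 24.4 FPKM in si2-BCLIN25 (adjusted p = 0.112), and the difference between the siRNA groups was not called (adjusted p = 0.126). MAGED2 was at 31.0, 32.5 and 33.0 FPKM and was not called (adjusted p = 0.204 and 0.0935), except in si2-BCLIN25 under quantile normalization (0.0433). MAGEF1 fell from 17.9 to 15.3 FPKM in si1-BCLIN25 (limma adjusted p = 0.000964) and was at 16.7 FPKM in si2-BCLIN25 (adjusted p = 0.0925), where median centring gave a call (0.0164). The meiotic gene SYCP2 fell from 5.99 ± 0.586 FPKM to 3.65 ± 0.329 and 4.14 ± 0.319, by 0.59 and 0.44 (limma adjusted p = 2.86e-05 and 0.000297).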
